A study of Mus musculus with 6 samples.

Results

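The acyl-CoA metabolism enzyme families described here are the protein-coding mouse genes whose RefSeq symbols begin with Acot, Acsl, Acsm, Acss, Acad, Acox, Acaa, Acat or Acbd, leaving out Acadm, Acadl, Acadvl and Acaa2. Membership was set by symbol, in families picked with earlier results of these data known, which gave 47 genes of the 21887 protein-coding genes compared. Their accessible chromatin was read from a single list of 120905 ATAC-seq intervals, of which 244 lay in the span of a member or within 10 kb of it. ATAC-seq finds open DNA by the insertion of sequencing adapters with a transposase. Livers of wild-type males of the inbred strains 129S1/SvImJ and C57BL/6J were used, with 3 libraries each, and every animal was fed a high-fat diet. All 6 libraries thus share sex, genotype and diet, and the labels give no age and do not say whether replicates were separate animals. They carry an antibody entry naming Esrrg, although the protocol uses no antibody, and they name the transposed material by an abbreviation that is not explained.

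The list combined the libraries and gave positions only. It named no strain or library, so 129S1/SvImJ and C57BL/6J could not be compared, and every value below is a count in the combined list, with no replicate error and an unknown depth. Interval widths ran from 201 to 401 bp, and 46.2% of intervals had the narrowest width of 201 bp. Distances below are to interval centres. Width is the only property of an interval beside its place, and what set it is not given in the sources used here. As a check of the tissue label, 8 of 8 hepatocyte marker genes had an interval within 1 kb of an end of the gene, against 3 of 8 macrophage and 3 of 8 lymphocyte markers, where 61.5% of all protein-coding genes had one. In the RefSeq promoter windows the hepatocyte and macrophage lists did not differ for intervals of any width. Of the 5 genes of each list with such a window, 2 hepatocyte, 2 macrophage and 0 lymphocyte markers had an interval on it. The share over all protein-coding genes with a window was 52.1%. At the end where transcription starts 3, 3 and 0 had one, where 57.8% of all did. At the opposite end 4, 0 and 2 had one, where 13.2% did. Intervals wider than 201 bp marked either end in 4 of 8 hepatocyte, 1 of 8 macrophage and 2 of 8 lymphocyte markers, where 51.7% of all protein-coding genes had one. On the promoter windows, 2 hepatocyte, 0 macrophage and 0 lymphocyte markers of 5 each had such a wider interval. The share over all protein-coding genes with a window was 44.4%. In the span and 10 kb to either side the hepatocyte markers had 3 to 12 intervals, the macrophage markers 0 to 5, with none at Adgre1 and C1qa, and the lymphocyte markers 0 to 8, with none at Cd3d, Cd8a and Ms4a1. The part of other cell types in the counts below was not tested.

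Fatty acids enter metabolism as thioesters of coenzyme A. Synthetases (Acsl for long chains, Acsm for medium chains, Acss for short chains) make the thioester, thioesterases (Acot) split it again, and acyl-CoA binding proteins (Acbd) carry or sense it. Dehydrogenases (Acad) in mitochondria and oxidases (Acox) in peroxisomes open each round of beta-oxidation or of branched-chain amino acid breakdown, and thiolases (Acaa, Acat) close it or join acetyl groups for ketone bodies and sterols. The liver uses all of these branches, and several of the genes are known targets of the nuclear receptor PPARalpha.

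Every member had at least 1 interval in its span or within 10 kb (47 of 47), where 83.9% of all protein-coding genes did. Members had a median of 5 intervals (range 1 to 18), and all protein-coding genes had a median of 3. Member spans were longer, with a median of 28.2 kb against 17.2 kb. Per 100 kb of span and flank the median was 9.04 intervals for members and 6.51 for all protein-coding genes, and 34 of the 47 members lay above that median. An interval overlapped the span itself in 45 of 47 members, where 69.1% of all protein-coding genes had one. The exceptions were Acot5 and Acsm4.

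An interval within 1 kb of either end of the span was present in 39 of 47 members (83.0%, exact Clopper-Pearson 95% interval 69.2 to 92.4), where 61.5% of all protein-coding genes had one. Intervals wider than 201 bp marked an end in 32 members (68.1%), where 51.7% of all protein-coding genes had one. Counting the promoter windows of listed start sites as well, which lie inside the span in some genes, 41 of 47 members had an interval at an end or a start, where 64.2% of all protein-coding genes had one. Those with neither were Acsl5, Acsl6, Acsm2, Acsm4, Acox2 and Acbd4. Acbd4 has no listed start, so only its ends were looked at, as in all genes without one. The confidence intervals cover counting error only and take genes as independent, although neighbours in a cluster are not. The number of members is small, no test of the families as a list was made, and the shares describe this list of positions.

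The end that carried the interval was nearly always the one at which transcription starts. The RefSeq promoter table, which gives strand and start sites, held 38 of the 47 members and 17492 of the protein-coding genes, over which the shares at starts were taken. The interval lay at the start end in 30 of these 38 (78.9%) and at the opposite end in 2 (5.26%), where 57.8% and 13.2% of all protein-coding genes had one. A promoter window, here 250 bases before to 50 bases after a listed start, was overlapped by an interval in 30 of 38 members (78.9%), where 52.1% of all protein-coding genes had one. An interval wider than 201 bp lay on the window in 26 of the 38 members (68.4%), where 44.4% of all protein-coding genes had one. Among genes with any interval on the window, a wider one was present in 26 of 30 members and in 7773 of 9122 protein-coding genes. Acot4, Acot10, Acoxl and Acaa1b had an interval of the narrowest width alone. The members that the table did not hold include Acot6, Acot13, Acss3, Acad9, Acat3, Acat1, Acbd3 and Acbd4.

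**Figure D1:**
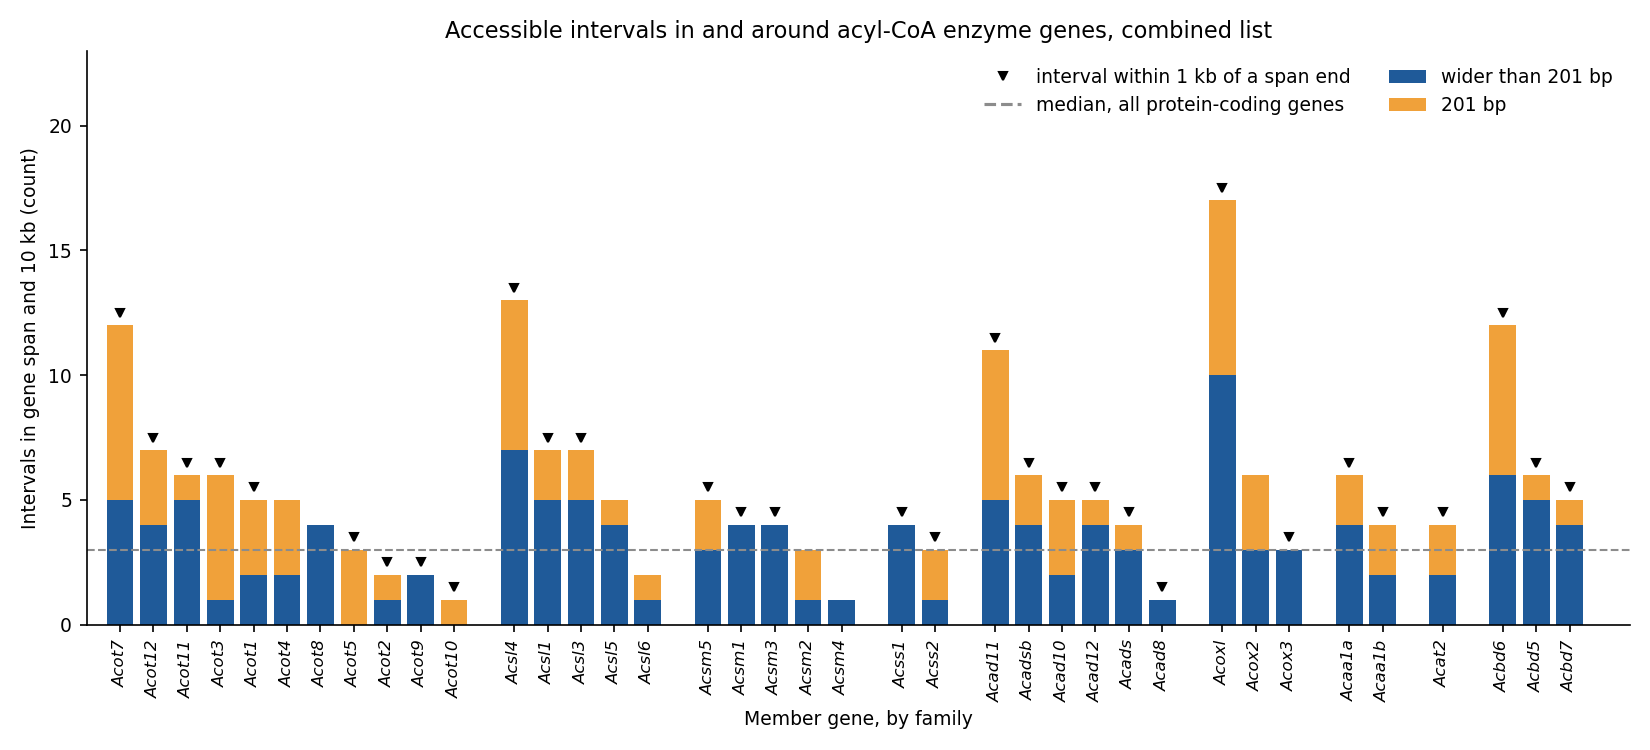
Number of intervals in the gene span and 10 kb to either side for each of the 38 members in the promoter table, grouped by family and ordered by count, with intervals wider than 201 bp and of exactly 201 bp stacked; a triangle marks a gene with an interval within 1 kb of a span end and the dashed line is the median of all protein-coding genes (3). Acoxl (17) had the most intervals of those shown, and Acot10, Acsm4 and Acad8 had 1 each.

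Interval centres lay close to a listed start in most members. An interval centre lay within 100 bp of a listed start in 24 of 38 members (63.2%), where 36.2% of all protein-coding genes had one. The median distance from a member's listed starts to the nearest interval centre was 76.5 bp, against 215 bp for all protein-coding genes. These values include genes without an interval at a start. The nearest centre lay over 1 kb away in 13.2% of members and 38.7% of all protein-coding genes. Acss1, the mitochondrial acetyl-CoA synthetase, had a centre 6 bp from its start and Acad11, a dehydrogenase of long acyl chains, 8 bp. At the other extreme Acsm4, Acox2, Acsm2, Acsl6 and Acot7 had no centre within 1 kb. For Acsm4 the distance was 16419 bp, for Acox2 14518 bp and for Acsm2 9745 bp. The listed start of Acot7 lies inside its span. A 206 bp interval was centred 34 bp inside the end of Acot7 at which transcription starts.

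**Figure D2:**
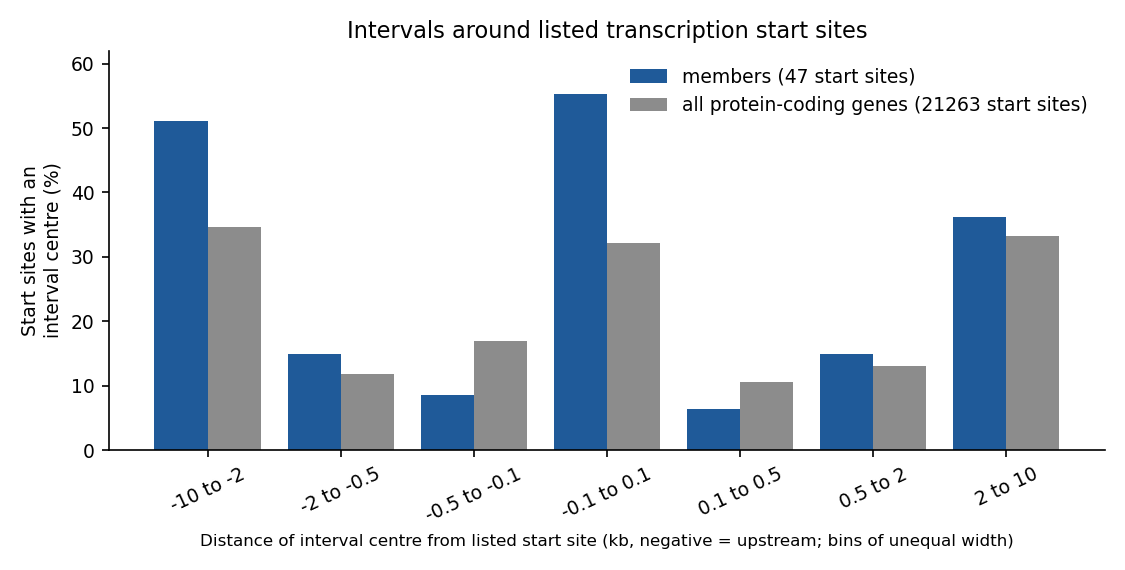
Share of listed start sites (%) with an interval centre in each distance bin (kb, negative upstream, bins of unequal width) for the 47 start sites of 38 members and the 21263 start sites of all protein-coding genes. Within 100 bp of a start the shares were 55.3% and 32.1%, whereas from 100 to 500 bp upstream they were 8.51% and 16.9%.

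The medium-chain synthetases form a cluster on chromosome 7, in which members with and without an accessible start stood next to each other. Acsm5, Acsm2, Acsm1, Acsm4 and Acsm3 lie in this order over 259 kb (chr7:119526131-119784896, mm10), all on the plus strand. Acsm5, Acsm1 and Acsm3 each had an interval wider than 201 bp on the promoter window. It was 220 bp wide and centred 14 bp upstream of the start in Acsm5, 219 bp wide and 39 bp upstream in Acsm1, and 276 bp wide and 74 bp upstream in Acsm3. Acsm2, known in the mouse for its expression in kidney, and Acsm4, known for its expression in olfactory epithelium, had no interval at an end or on a listed promoter window.

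Around Acsm4, the only interval in the span or within 10 kb was 252 bp wide, lay 6255 bp beyond its far end and fell inside Thumpd1. Acsm2 had 3 intervals in its window, 1 of them inside the gene. Acsm1, which activates butyrate and benzoate, had 2 further intervals inside the gene, of 274 and 254 bp, 4009 and 26901 bp downstream of the start. Acsm3 had a 221 bp interval 1453 bp upstream of its start. The 3 intervals upstream of Acsm5 and the one at its start all lay inside the span of Pdilt, the neighbouring gene, so the interval at this start cannot be given to Acsm5 alone. The region and 10 kb to either side held 20 intervals, 14 of them wider than 201 bp, and 13 of the 20 lay outside the member spans. The largest gap between neighbouring centres was 47.2 kb and contained Acsm4.

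The 150 bases upstream of the starts are shown so that the accessible and the other starts of the cluster can be compared. The sequences are from RefSeq (GRCm38.p6, plus strand), and capitals mark exact matches, on either strand, to AGGTCA (the core element bound by many nuclear receptors), CACGTG (the E-box bound by clock factors), to the TATA-box letters TATAAA, to the Sp1-type GC box GGGCGG or to the CCAAT box. Where a gene has several listed starts, the most upstream is used. The accessible starts were Acsm5 (chr7:119526115-119526264), Acsm1 (chr7:119617662-119617811) and Acsm3 (chr7:119760773-119760922), and the interval covered 123, 148 and 150 of the 150 bases. The other starts were Acsm2 (chr7:119554190-119554339) and Acsm4 (chr7:119689876-119690025).
Acsm5: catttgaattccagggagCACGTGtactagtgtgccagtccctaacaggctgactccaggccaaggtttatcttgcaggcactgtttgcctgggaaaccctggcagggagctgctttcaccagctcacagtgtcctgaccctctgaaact
Acsm1: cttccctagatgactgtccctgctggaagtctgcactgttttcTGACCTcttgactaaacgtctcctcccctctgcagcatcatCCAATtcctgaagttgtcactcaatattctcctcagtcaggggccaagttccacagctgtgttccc
Acsm3: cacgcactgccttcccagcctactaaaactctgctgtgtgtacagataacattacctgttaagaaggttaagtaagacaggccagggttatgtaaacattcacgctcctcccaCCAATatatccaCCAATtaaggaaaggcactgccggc
Acsm2: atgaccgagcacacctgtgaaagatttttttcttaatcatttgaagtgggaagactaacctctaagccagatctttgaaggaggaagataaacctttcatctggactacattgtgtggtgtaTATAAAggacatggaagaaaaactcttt
Acsm4: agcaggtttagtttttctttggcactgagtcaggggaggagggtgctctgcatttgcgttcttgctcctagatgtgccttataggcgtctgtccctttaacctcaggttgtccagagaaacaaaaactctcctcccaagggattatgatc

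Matches to these motifs were present in accessible and other starts alike. Acsm1 had a CCAAT match beginning 66 bases before its start and an AGGTCA match at -107, and Acsm3 had CCAAT matches at -37 and -25. All of these lay under the interval. Acsm5 had an E-box at -132, just outside its interval. Acsm2 had a TATAAA match at -28, and Acsm4 had none of the motifs in these bases. Identity of the 250 upstream bases in global alignments was 49.6% to 55.6% over the 10 pairs within the cluster, with a median of 52.4%. Identity here is the share of the 250 bases that matched, with gaps allowed. Over the 25 pairs between this cluster and the Acot cluster it ran from 49.6% to 55.6% with a median of 52.8%, so pairs within the cluster were no more alike than pairs between clusters.

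**Figure D3:**
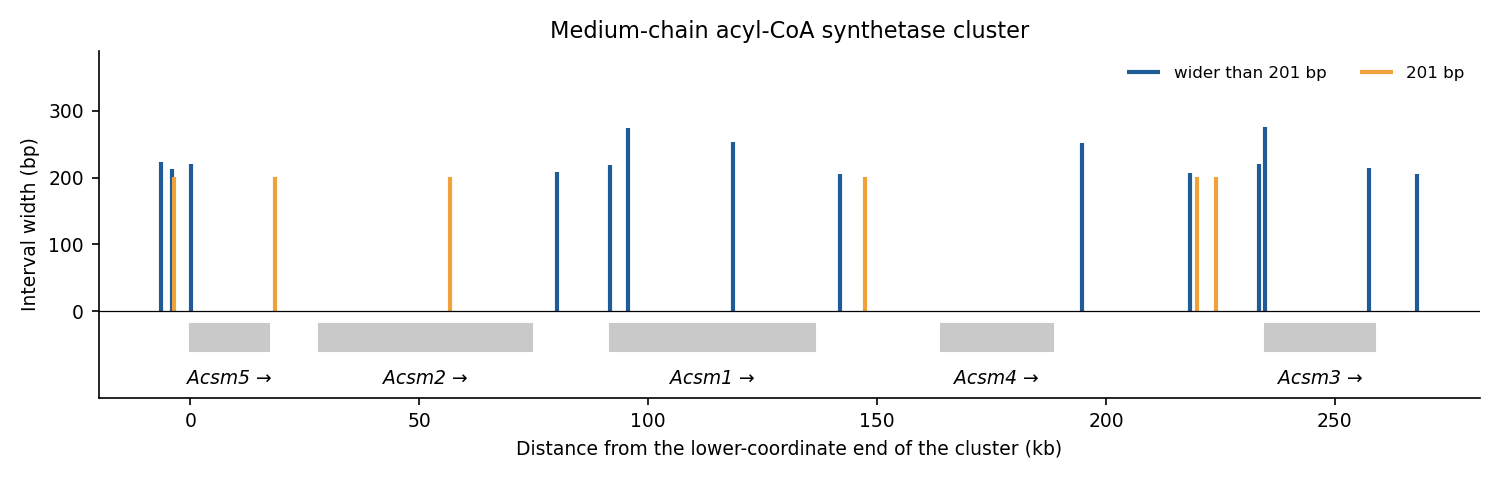
Map of the Acsm cluster on chromosome 7, with distance from its lower-coordinate end in kb, gene spans as grey boxes with an arrow for the strand, and each interval as a line whose height is its width in bp. Intervals stand at the left edge of Acsm5, Acsm1 and Acsm3, and none stands at the left edge of Acsm2 or Acsm4.

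The type I thioesterases form a tighter cluster on chromosome 12, with mostly narrow intervals. Acot2, Acot1, Acot4, Acot3, Acot5 and Acot6 lie in this order over 122 kb (chr12:83987861-84109783, mm10). In the mouse Acot2 is mitochondrial, Acot1 cytosolic and Acot3 to Acot6 peroxisomal. The region and 10 kb to either side held 17 intervals, only 6 of them wider than 201 bp (35.3%), against 23 of 35 (65.7%) around the 7 Acot genes elsewhere and 59.6% of the intervals around all protein-coding genes. An interval lay within 1 kb of an end in 5 of the 6 cluster genes (83.3%), where 61.5% of all protein-coding genes had one, and a wider one in 2 (33.3%), Acot2 and Acot1, where 51.7% did.

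Acot2 and Acot1 had wider intervals at their starts, of 229 bp centred 44 bp upstream and of 218 bp centred 9 bp downstream. Acot4 had a 201 bp interval centred 17 bp upstream of its listed start, which lies inside the span, so that no interval overlapped its end windows. Acot3 and Acot5 had no interval on the promoter windows. Their nearest centres were 567 bp downstream of the start of Acot3 and 543 bp upstream of that of Acot5, and both intervals were 201 bp wide. Acot6 had 2 intervals of 201 bp centred 174 and 669 bp inside its lower-coordinate end. Per 100 kb, Acot3 had the highest density of the 47 members, with 21.2 intervals, and 98.4% of all protein-coding genes were as dense or less. Neighbouring windows of the cluster overlap, so that its 6 genes counted 24 intervals of which 17 were distinct.

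The upstream sequences of the cluster are shown in the same way for the accessible starts of Acot2 (chr12:83987711-83987860), Acot1 (chr12:84009352-84009501) and Acot4 (chr12:84038229-84038378), of which the intervals covered 150, 99 and 117 bases, and for Acot3 (chr12:84051994-84052143) and Acot5 (chr12:84069174-84069323), on which no interval lay. All 5 are on the plus strand.
Acot2: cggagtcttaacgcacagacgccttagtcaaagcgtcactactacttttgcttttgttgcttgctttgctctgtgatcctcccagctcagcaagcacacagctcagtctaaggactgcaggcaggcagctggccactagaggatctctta
Acot1: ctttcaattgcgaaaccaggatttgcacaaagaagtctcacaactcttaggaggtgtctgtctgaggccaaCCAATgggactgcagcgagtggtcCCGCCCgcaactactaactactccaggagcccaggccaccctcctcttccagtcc
Acot4: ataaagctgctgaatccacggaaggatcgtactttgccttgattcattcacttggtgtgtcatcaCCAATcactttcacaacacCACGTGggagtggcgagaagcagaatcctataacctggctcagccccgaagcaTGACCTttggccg
Acot3: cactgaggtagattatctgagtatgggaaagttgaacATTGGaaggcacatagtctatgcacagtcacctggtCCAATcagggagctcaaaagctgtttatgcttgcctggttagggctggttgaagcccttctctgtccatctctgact
Acot5: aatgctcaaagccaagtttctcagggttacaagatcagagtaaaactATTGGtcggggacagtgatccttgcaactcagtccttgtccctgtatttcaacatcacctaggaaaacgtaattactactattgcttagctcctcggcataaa

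Acot4 carried the most motif matches of these starts, with CCAAT at -85, the E-box at -66 and AGGTCA at -13, all under its interval. Acot1 had CCAAT at -79 and GGGCGG at -55, and Acot2 had no match in these bases. Among the starts without an interval, Acot3 had CCAAT at -113 and -77, and Acot5 had CCAAT at -103. Upstream identity was 48.4% to 54.8% over the 10 pairs within the cluster. The median was 51.6%, against 52.8% for the pairs between this cluster and the Acsm cluster. Identity of the coding parts was not analysed here, and the placement of reads from related copies is not given in the sources used here.

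**Figure D4:**
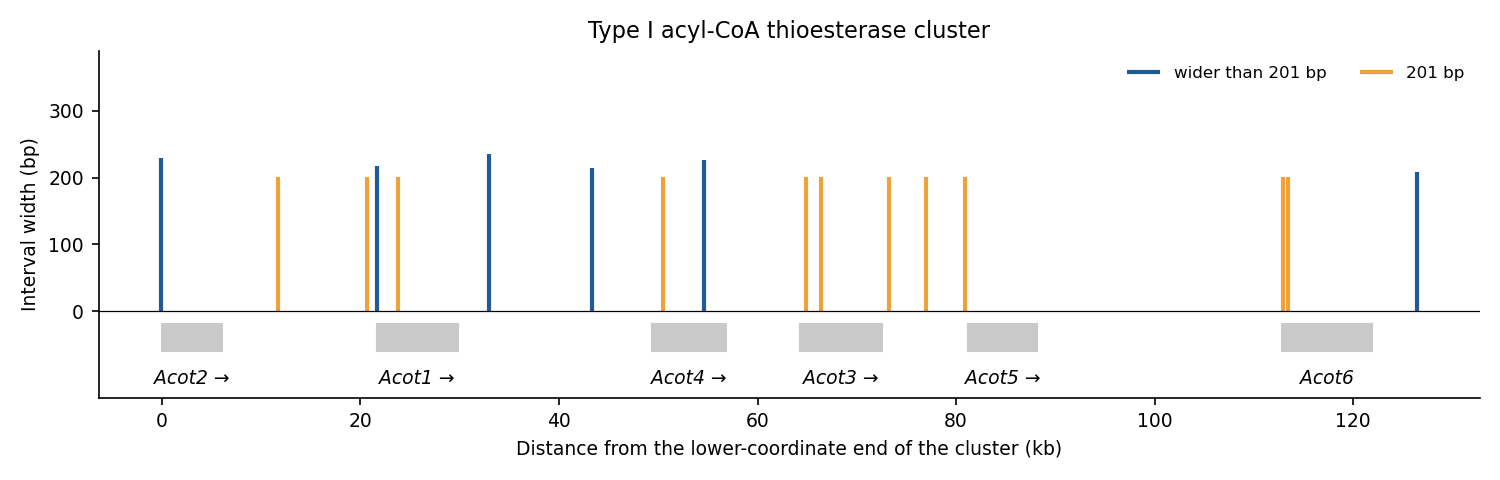
Map of the type I Acot cluster on chromosome 12, with distance from its lower-coordinate end in kb, gene spans as grey boxes (the arrow is the strand, not listed for Acot6) and each interval as a line whose height is its width in bp. Of the 17 intervals, 11 were 201 bp wide, and the 6 wider ones lay at Acot2, around Acot1 and Acot4, and beyond Acot6.

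The Acot genes outside the cluster encode the type II thioesterases, and 6 of these 7 had an interval at an end (85.7%, exact 95% interval 42.1 to 99.6), where 61.5% of all protein-coding genes had one. Acot12, which hydrolyses acetyl-CoA in liver cytosol, had a 297 bp interval centred 39 bp upstream of its start and 5 more inside the gene. Acot11, also called Them1, had intervals of 250 and 249 bp at both of its listed starts. Acot7, a thioesterase best known from brain, had the most intervals of the family, 12, of which 5 were wider than 201 bp. Acot8, a peroxisomal thioesterase, had none at an end, but a 214 bp interval lay 152 bp upstream of its listed start, inside Zswim3. Acot10, a short gene of 1.54 kb, had 1 interval, which also lay inside Cdh12, and the mitochondrial Acot9 had 2. Acot13, or Them2, had 3, and the interval at its end also lay at the end of Tdp2.

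**Figure D5:**
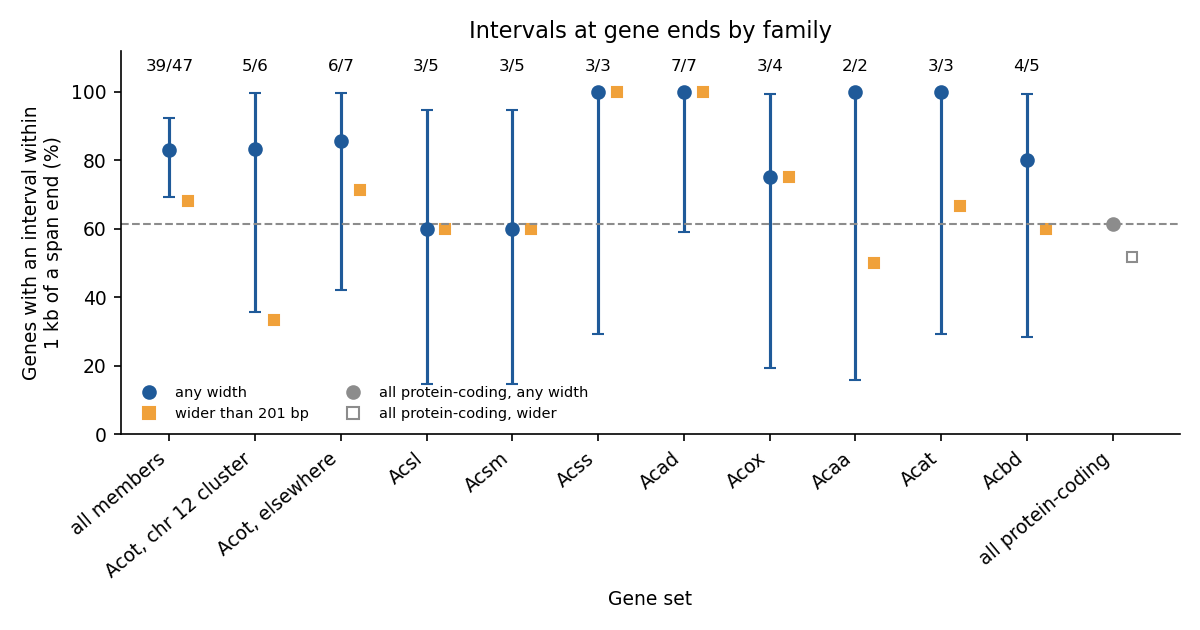
Share of genes (%) with an interval within 1 kb of a span end by family, for intervals of any width (circles, bars are exact 95% intervals, counts above) and wider than 201 bp (squares), with all protein-coding genes at the right (61.5% for any width, also the dashed line, and 51.7% for wider). All 7 Acad genes had a wider interval at an end, and in the Acot cluster 2 of 6 did. The end intervals of Acad8, Acad10, Acad11 and Acadsb all lay at the end of another protein-coding gene as well.

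Among the long-chain synthetases, Acsl1, Acsl3 and Acsl4 had an interval at the start, whereas Acsl5 and Acsl6 had none at an end. Acsl1, the main synthetase of liver, had an interval at each of its listed starts, 207 bp wide and 143 bp upstream of the outer start, and 201 bp wide and 39 bp upstream of the inner one. Acsl4, which prefers arachidonate, had 13 intervals, the most of the family. Acsl6, known from brain, had 2 intervals and its nearest centre was 3406 bp from the closest of its 3 listed starts. Acsl5 had 5 intervals, the nearest centred 598 bp downstream of its listed start. The share at an end was 60.0% in Acsl and 60.0% in Acsm (3 of 5 each), near the 61.5% of all protein-coding genes.

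Each of the 3 short-chain synthetases had an interval at an end (exact 95% interval 29.2 to 100), where 61.5% of all protein-coding genes had one. Acss2, which makes acetyl-CoA in cytosol and nucleus, had a 270 bp interval 118 bp upstream of its start, and Acss1 had a 268 bp interval across its start. Acss3, a mitochondrial propionyl-CoA synthetase, had 18 intervals, the most of all members. Its span of 190 kb brings that to 8.56 per 100 kb. It was also 1 of 2 members with an interval at both ends, the other being Acot3 (2 of 47), where 9.68% of all protein-coding genes had both.

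All 7 acyl-CoA dehydrogenases had an interval wider than 201 bp at an end (100%, exact 95% interval 59.0 to 100), where 51.7% of all protein-coding genes had one. They include Acads, the short-chain dehydrogenase, Acadsb and Acad8 of branched-chain amino acid breakdown, and Acad9, an assembly factor of respiratory complex I. In 4 of the 7 every end interval also lay at the end of a neighbouring protein-coding gene, among them Brap beside Acad10, Ikzf5 beside Acadsb and Thyn1 beside Acad8. Members of other families with this arrangement include Acot13 (Tdp2), Acsl3 (Utp14b), Acoxl (Bcl2l11) and Acbd7 (Rpp38). Over all members, 9 of 47 had only shared intervals at an end. Without shared intervals, the share at an end fell from 83.0% to 63.8% in members and from 61.5% to 49.0% in all protein-coding genes. Among the 7 dehydrogenases, only Acad9, Acads and Acad12 kept one. Which gene of such a pair an interval belongs to cannot be told from positions. At their starts Acad12 had a 298 bp interval centred 101 bp downstream and Acads a 232 bp interval 125 bp downstream, and Acad9 had a 233 bp interval 69 bp inside its lower-coordinate end. Acad11 had the most intervals of the family, 11, and Acad8 had 1 in all.

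The oxidases of peroxisomal beta-oxidation were less uniform. Acox3 had a 225 bp interval 41 bp downstream of its start. Acox2, which acts on bile acid precursors and branched chains, had 6 intervals but none at an end, and 4 of them lay beyond its far end beside or inside Kctd6. Acoxl, a gene of 287 kb, had 17 intervals, or 5.53 per 100 kb. Its end interval lay at its far end, at Bcl2l11, and a 201 bp interval lay on its listed start, which is inside the span.

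All 5 thiolase genes lay above the median density of all protein-coding genes, as did 34 of the 47 members. They had 10.6 to 20.5 intervals per 100 kb of span and flank, against 6.51. Acaa1a and Acaa1b encode the peroxisomal thiolases, and Acaa1a had 6 intervals, or 20.5 per 100 kb, while Acaa1b had 4. Acaa1a had a 250 bp interval 88 bp upstream of its start, and Acaa1b had only intervals of 201 bp at its start end, centred 82 and 666 bp downstream of the start. Acat1, the mitochondrial thiolase of ketone body metabolism, had 7 intervals, including 1 of 269 bp centred 40 bp inside its upper-coordinate end. Acat2, the cytosolic thiolase at the start of sterol synthesis, had a 269 bp interval 46 bp downstream of its start. Its neighbour Acat3 had 6 intervals, with a 201 bp interval at its end. Inside another protein-coding gene lay 3 of the 4 intervals of Acat2, 2 of 6 of Acaa1a, 2 of 6 of Acat3 and 2 of 7 of Acat1. Those 3 of Acat2 lay inside Acat3 and count for both genes.

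Of the 5 acyl-CoA binding protein genes, 4 had an interval at an end (80.0%, exact 95% interval 28.4 to 99.5), where 61.5% of all protein-coding genes had one. A wider one was present at an end in 3 (60.0%), near the 51.7% of all protein-coding genes. Acbd5, which links peroxisomes to the endoplasmic reticulum, had intervals at both listed starts, of 226 and 207 bp, and inside the gene the widest interval of all members, 390 bp. Acbd3, a Golgi protein gene, had a 310 bp interval 105 bp outside its lower-coordinate end. Acbd6 had 12 intervals, all inside the gene. Acbd7 had 5, and a 231 bp interval lay 94 bp upstream of its listed start, which is inside the span. Acbd4 had 4 intervals and none at an end.

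The widest intervals on a promoter window among the 38 members were those of Acbd6, 340 bp, and Acad10, 325 bp. The 150 bases upstream of these starts are shown for contrast with the clusters, for Acbd6 on the plus strand (chr1:155557970-155558119), of which the interval covered 18 bases, and Acad10 on the minus strand (chr5:121660511-121660660), of which it covered 150. The Acbd6 interval lay mainly downstream of the start, with its centre at 151 bp.
Acbd6: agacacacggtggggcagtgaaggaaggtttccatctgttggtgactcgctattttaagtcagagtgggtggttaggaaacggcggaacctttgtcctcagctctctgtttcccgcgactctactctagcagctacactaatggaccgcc
Acad10: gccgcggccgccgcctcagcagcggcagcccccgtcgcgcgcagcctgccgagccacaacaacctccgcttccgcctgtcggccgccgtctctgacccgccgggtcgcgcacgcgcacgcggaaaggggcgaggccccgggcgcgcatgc

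Neither sequence held a match to the 5 motifs. The Acad10 window of 300 bases was the richest of the members in G and C, at 77.0%, and had 45 CpG dinucleotides. The windows of Acsm5 and Acsm1 had 1 and 2.

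Few CpG dinucleotides did not go with a missing interval in every family. Promoter windows with 0 to 4 CpG had an interval in 5 of 12 member windows (41.7%), where 9.73% of the windows of all protein-coding genes had one. The 5 belonged to Acsm5, Acsm1, Acoxl, Acaa1b and the inner start of Acsl1, and those without belonged to Acsm2, Acot3, Acox2 and Acsl6. With 5 to 9 CpG the count was 5 of 11 (45.5%), against 27.2%. All 10 member windows with 10 to 19 CpG had an interval, against 63.7%, and with 20 or more 13 of 14 did (92.9%), against 78.7%. The exception was 1 of the starts of Acsl6, with 36 CpG. Several windows of a gene can overlap, so these are windows and not genes.

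Motif matches in the promoter windows were close to the background for most motifs. AGGTCA was found in 8 of 47 member windows (17.0%), against 14.7% of the 21263 windows of all protein-coding genes, and CACGTG in 3 (6.38%) against 7.84%. Among windows with an interval, AGGTCA was in 3 of 33 member windows (9.09%), against 11.8% of all such windows. Windows of a gene can overlap. Acot3 and Acot5 have 2 overlapping windows each, and their AGGTCA and CCAAT matches count in both. The DR1 element, a direct repeat of AGGTCA spaced by 1 base that PPARalpha and HNF4A bind, was in none of the member windows and in 0.0470% of all windows. TCAAGGTCA, the element of estrogen-related receptors, which includes AGGTCA, was in 1 member window (2.13%), against 0.334%, at a start of Acsl6 without an interval. CCAAT was in 26 (55.3%) against 38.2%, GGGCGG in 21 (44.7%) against 46.2% and TATAAA in 4 (8.51%) against 12.6%. These are exact letters within 300 bases, and other windows were not searched.

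Other genes of acyl-CoA metabolism, taken from a list of 36, had an interval at an end in 28 cases (77.8%, exact 95% interval 60.8 to 89.9). The share over all protein-coding genes was 61.5%. In 10 genes of peroxisomal oxidation 9 did, the exception being Scp2, which had an interval on its listed start. In 11 further activation genes 8 did, in 7 of coenzyme A synthesis 6, and in 7 of hydrolysis and transfer 4. In the span or within 10 kb, 35 of the 36 had an interval (97.2%), the exception being Acsf3, a mitochondrial malonyl-CoA synthetase gene. All 47 members had one, and 83.9% of all protein-coding genes did. At an end the share of members was 83.0%, and the difference between the members and this list was not tested. Dbi, the founding acyl-CoA binding protein gene, had 4 intervals, 2 of them at an end.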

How the data were processed

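The authors deposited a single list of interval positions without header, score or count. Per the submitters' processing notes, fastp, Bowtie2, HOMER and the build mm10 were used; the sources used here do not give versions, read shifting, the peak threshold or the merging rule. Because the deposited list names no library, the planned comparison of strains was not made, no test was run and depth is unknown. The planned protein identity was not run.

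Starts were converted to 1-based positions. Gene spans, strand, start sites and promoter sequences came from RefSeq tables of GRCm38.p6, which is mm10. An interval counted for a gene when it overlapped the span and 10 kb to either side by at least 1 bp, and for an end within 1 kb. All 38 members in the promoter table were matched by gene ID, and overlapping windows of opposite strands (1913 pairs) agreed after reverse complement. Counts used Python 3.11.15, pandas 2.3.3 and scipy 1.17.1, and alignments Biopython 1.88. The counting was tested on simulated data. Members, lists and motifs were chosen with earlier results of these data known. Any member could be named, and some genes are not reported here; cluster members, the highest of each family and exceptions were described in full. Clusters are members within 100 kb of each other.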

Additional observations from a re-analysis of the deposited data

How the results depend on the processing

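In all 16 alternatives that gave a share, the share of members was above that of all protein-coding genes. The share with an interval at an end was 95.7% (all protein-coding genes 76.8%) with windows of 5 kb and 68.1% (51.7%) with intervals wider than 201 bp only. Chosen after seeing the data, leaving out intervals also at the end of another protein-coding gene gave 63.8% (49.0%), and leaving out both clusters gave 86.1%. Wider intervals marked an end in 85.1% (66.4%) with 5 kb. The median per member was 2 (all protein-coding genes 1) without flanks, 11 (8) with 50 kb and 3 (2) with wider intervals only, and the distinct intervals were 160, 435 and 154. For these changes fewer intervals or other windows are part of the alternative. Of the families, Acsl and Acsm were at 60.0% against 61.5%, and at 60.0% against 56.0% with windows of 500 bp; with 5 kb Acsl was at 100% and Acsm at 60.0%, against 76.8%. With wider intervals only, Acaa was at 50.0% against 51.7%. No paired analysis was possible because the list names no library, so leaving out a replicate was not run either. Depth is unknown, and an absent interval is not shown to be closed chromatin.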
